A study of Mus musculus with 11 samples.

Results

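The autophagy machinery was followed in hippocampal astrocytes of fasted, ketogenic and chow-fed mice through 33 genes, of 20259 genes measured in all. They were chosen by name: every gene whose symbol begins with Atg and a digit, and 19 further genes that start, carry out or control the formation of autophagosomes. Of 37 such genes, 33 had a probe set that the array's annotation pairs with that symbol alone. Optn and Atg14 had none here, and the sets of Atg7 and Atg16l1 also carry the symbol of another gene, so these 4 were not analysed.

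In macroautophagy a cup of membrane grows around a piece of cytoplasm, closes into an autophagosome and fuses with a lysosome, where its content is broken down and the building blocks are returned to the cell. A shortage of nutrients starts the process mainly at the level of proteins: the kinase mTORC1 lets go of the ULK1 kinase complex, AMPK activates it, and ubiquitin-like proteins of the ATG8 family are attached to the lipid phosphatidylethanolamine on the growing membrane. Transcript levels are set in part by TFEB and TFE3, transcription factors that enter the nucleus when mTORC1 is inactive. In brain cells, astrocytes included, autophagy removes damaged mitochondria and protein aggregates. The arrays measure transcripts and do not measure how much material is degraded.

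The RNA came from hippocampus of Aldh1l1-Cre Ribo-Tag mice, in which Cre that is active in astrocytes switches on a tagged ribosomal protein, so that mRNA bound to tagged ribosomes could be pulled down from the whole tissue. The fasted group (n = 3) went without food, for 18 h by the treatment protocol and 24 h by the sample characteristics, the ketogenic group (n = 4) ate a diet rich in fat and poor in carbohydrate for 4 weeks, and the fed group (n = 4) ate chow for 4 weeks. All 3 groups carry the same transgenes, and the labels give neither age nor sex nor how many animals each pull-down holds, and the study describes the mice as adult. Each pull-down was hybridised to its own Affymetrix exon array. The labels number the arrays of a group as separate biological samples. The p-values set each difference between group means against the spread between such arrays, estimated over all 3 groups together.

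The values are on the log2 scale, so a difference of 1 is a doubling. The 862 odorant receptor genes, which most tissues do not express, had a median of 2.42 log2 and a 95th percentile of 3.96 log2, and 32 of the 33 autophagy genes had a mean above that percentile. Only Atg3, at 2.56 log2, read below it. Astrocyte markers averaged 7.97 to 8.15 log2 on the fasted arrays, 7.52 to 7.77 log2 on the ketogenic arrays and 8.04 to 8.19 log2 on the fed arrays (19 genes), and neuron markers 7.90 to 8.10, 8.02 to 8.07 and 7.87 to 7.94 log2 on the same groups (18 genes), so transcripts of neurons were also in the pull-downs, far above the odorant receptor level. The least typical arrays were fasted array 2 and fed array 2, to which limma's array weighting gave 0.458 and 0.251. Fed array 2 was the lowest fed array for 16 of the 33 autophagy genes and the highest for 9 (37.1% and 32.3% of all genes). Fewer cells of a type and less RNA per cell cannot be told apart in such pull-downs.

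**Figure D1:**
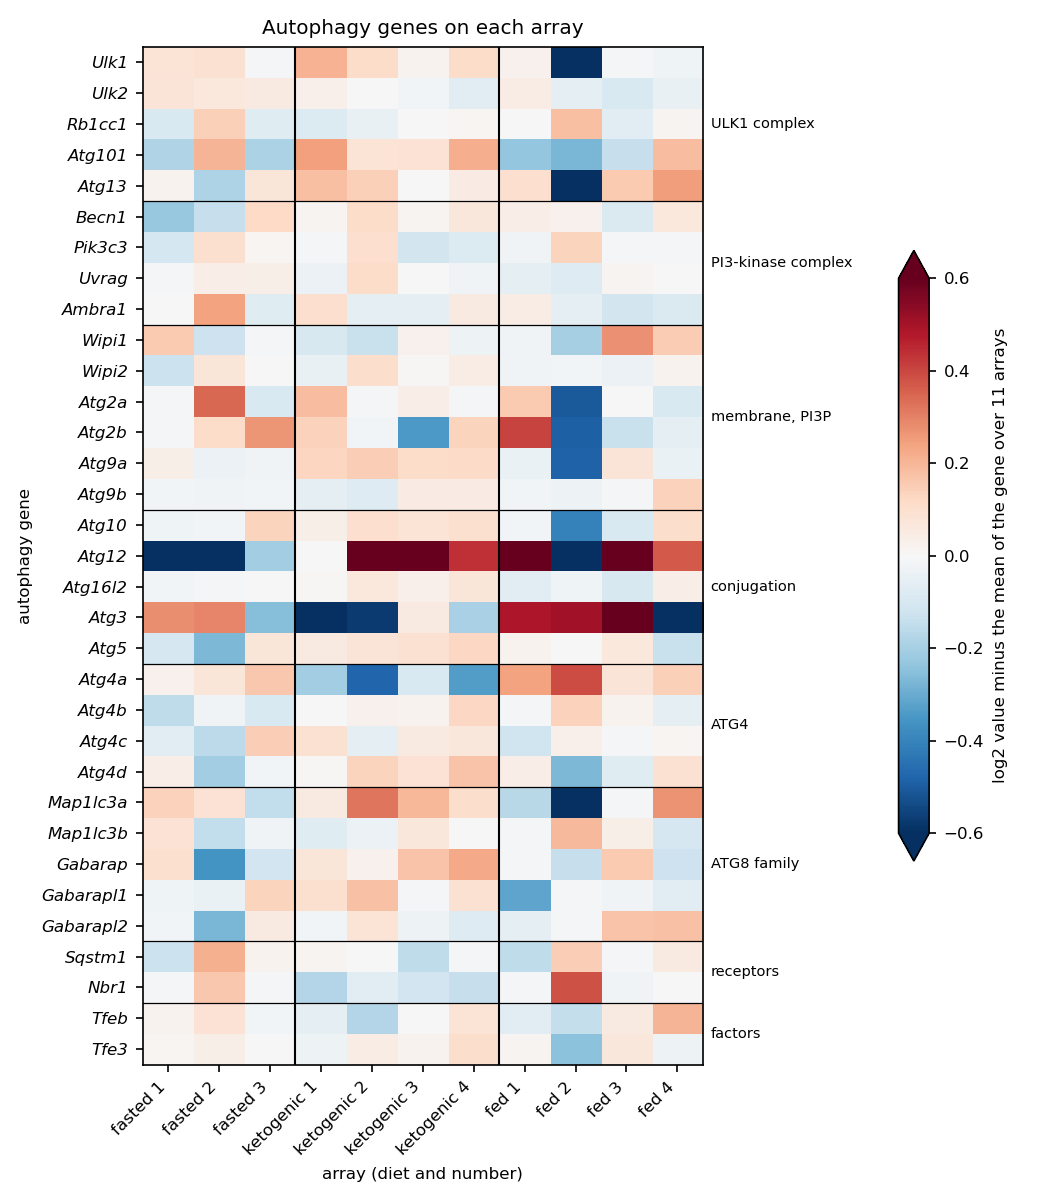
Log2 value of each of the 33 autophagy genes (rows, by role) on each of the 11 arrays (columns: fasted, ketogenic, fed), as the difference from the gene's mean over the arrays (colour). Most cells lie near 0, Atg12 and Atg3 vary most, and fed array 2 shows low values for Ulk1, Map1lc3a, Atg13 and Atg9a beside a high one for Nbr1.

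Fasting was compared with chow feeding to ask whether the transcripts of this machinery move when food is withdrawn. None of the 33 genes was called different between the fasted and the fed arrays, against 0.0% of all 20259 genes called (limma, Benjamini-Hochberg adjusted p under 0.05 over all genes). At an unadjusted p under 0.05 the count was 0 of 33, where 7.07% of all genes reached it (2.26% with higher and 4.82% with lower values on the fasted arrays). Of the 33 genes, 16 had a log2 fold change above 0 and 17 below, with a median of -0.00, and over all genes 44.0% lay above 0 with a median of -0.02. Ulk2, the close relative of the ULK1 kinase, was the only member whose fasted and fed arrays did not overlap, with the fasted arrays above (6.43% of all genes, 2.16% with the fasted arrays above). It read 6.27, 6.25 and 6.24 log2 on the fasted arrays and 6.23, 6.13, 6.10 and 6.14 log2 on the fed arrays, a difference of 0.10 log2 (standard error 0.06, adjusted p = 0.777 from limma). Of 14 oligodendrocyte markers 13 lay below 0 for fasted over fed arrays (median -0.33), 9 of them at an unadjusted p under 0.05 and none called by limma. Their list averaged 7.13 to 7.54 log2 on the fasted and 7.57 to 7.83 log2 on the fed arrays. Of the other markers, 13 of 14 endothelial and mural (median 0.09) and 13 of 18 neuron markers (median 0.09) lay above 0. So did 5 of 19 astrocyte (median -0.07), 6 of 14 microglia (median -0.05) and 5 of 9 ependymal and choroid plexus markers (median 0.41). None of these was called, and the part of the markers in the values of the autophagy genes was not tested. No member was called in any of the 17 other fits, which include leaving out each of the 7 arrays in turn.

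The ketogenic diet was compared with chow in the same fit. One member was lower on the ketogenic arrays and none was higher: Atg4a, a cysteine protease that trims the ATG8 proteins before they are joined to lipid and cuts them off again. That is 1 of 33 genes where 0.884% of all genes were called (179 genes, of which 155 were lower, or 0.765%). At an unadjusted p under 0.05 the count was 5 of 33, Gabarapl1, Atg101 and Atg9a with higher values and Atg3 and Atg4a with lower ones, where 13.9% of all genes reached it (7.39% with higher and 6.53% with lower values). The median log2 fold change of the 33 genes was 0.05 and 22 of them lay above 0, against a median of 0.01 and 53.5% of all genes. The 33 genes averaged 5.89 log2 on fed array 2 and 6.06 to 6.08 log2 on the other fed arrays. Their average on the ketogenic arrays was 6.04 to 6.08 log2. Without fed array 2 their median log2 fold change was 0.03. Ketogenic and fed arrays did not overlap for Atg9a, with the ketogenic arrays above, nor for Atg4a and Nbr1, with the ketogenic arrays below (10.7% of all genes, 5.94% above and 4.74% below).

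Between the fasted and the ketogenic arrays none of the 33 genes was called, where 0.281% of all genes were (57 genes by limma, 0.222% higher and 0.0592% lower on the fasted arrays). Atg4a, with higher values on the fasted arrays, and Atg12, with lower ones, had an unadjusted p under 0.05, which 10.6% of all genes reached (4.19% higher and 6.43% lower). The arrays did not overlap for 7 of the 33 genes (13.9% of all genes, 4.78% above and 9.16% below): Ulk2, Nbr1 and Atg4a lay above on the fasted arrays, and Atg12, Atg16l2, Atg4b and Atg9a below. The median log2 fold change was -0.05 and 13 of the 33 genes lay above 0, against -0.04 and 39.3% over all genes. All 19 astrocyte markers lay above 0 for fasted over ketogenic arrays (median 0.32), and 6 were called higher by limma. Of 14 endothelial and mural markers 13 lay above 0 (median 0.43), as did 7 of 9 ependymal and choroid plexus markers (median 0.46). Of 14 oligodendrocyte and 14 microglia markers 12 each lay below 0 (medians -0.11 and -0.16), as did 11 of 18 neuron markers (median -0.05). None of these others was called, and the part of the markers in the autophagy values was not tested. Each group serves in 2 of the 3 comparisons, which are therefore not independent of each other.

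**Figure D2:**
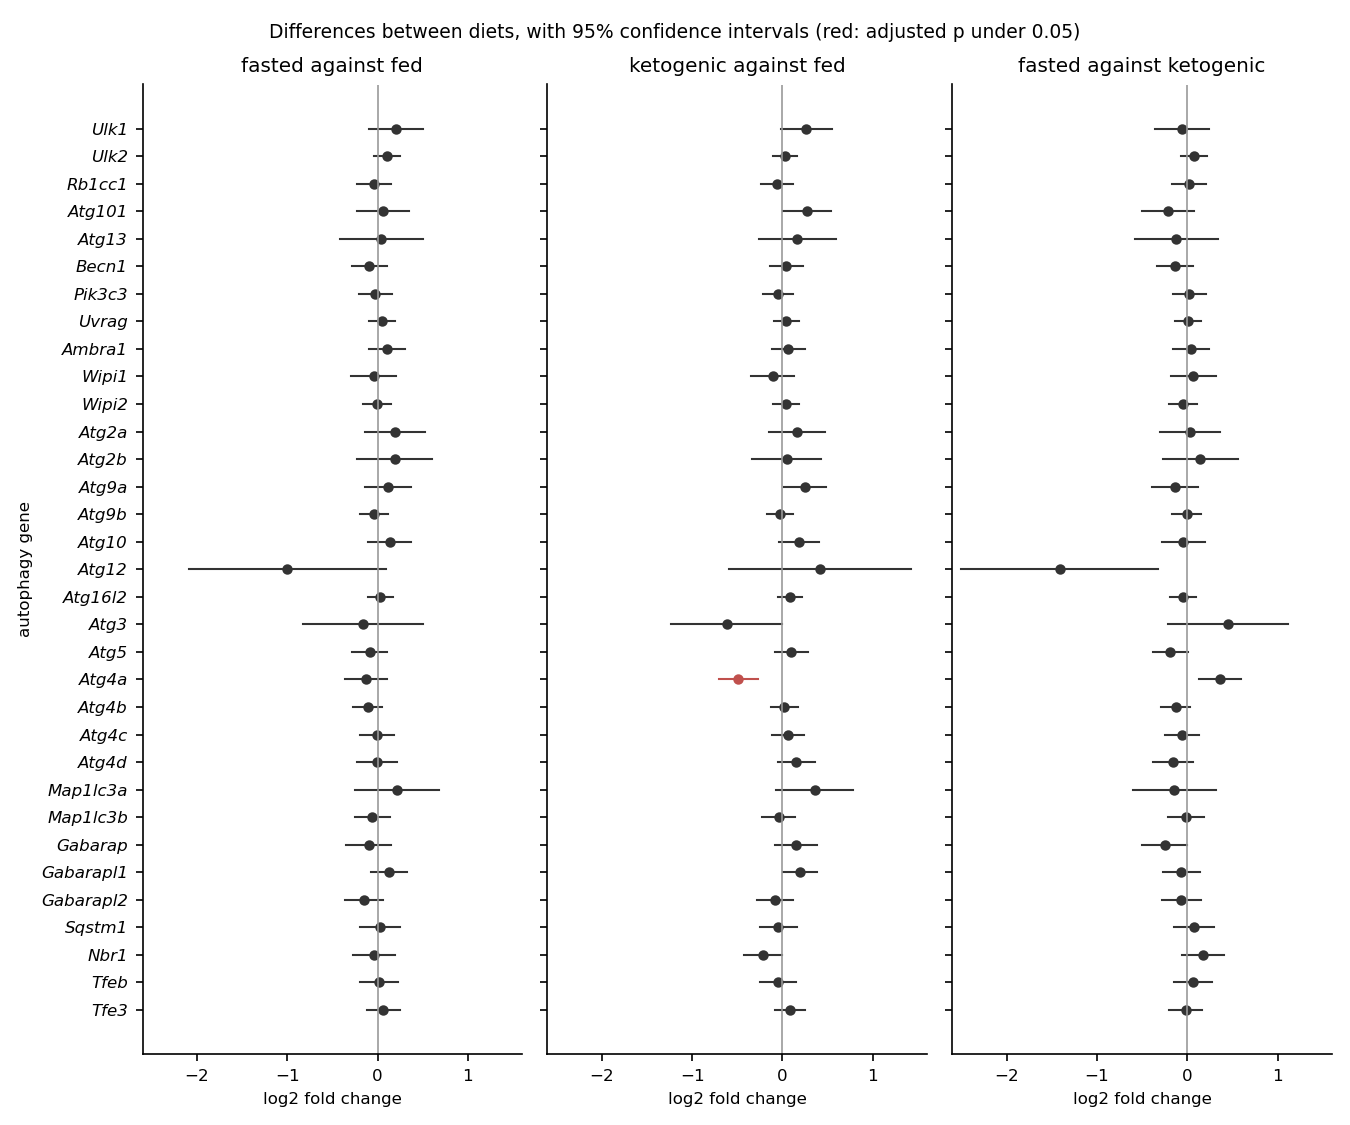
Log2 fold change of each of the 33 autophagy genes (rows, by role) between fasted and fed, ketogenic and fed, and fasted and ketogenic arrays (panels), with its 95% confidence interval from limma (bars) and the call at an adjusted p under 0.05 (red). Atg4a on the ketogenic diet, at -0.49, is the only call, and Atg12 and Atg3 have the widest intervals.

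Atg4a carried the only call. Its probe set read 4.40, 4.44 and 4.53 log2 on the fasted arrays, 4.16, 3.90, 4.28 and 4.04 log2 on the ketogenic arrays and 4.62, 4.77, 4.45 and 4.52 log2 on the fed arrays. All 4 ketogenic arrays lay below every fed and every fasted array. The mean was 4.10 ± 0.17 log2 on the ketogenic arrays (SD, n = 4) and 4.59 ± 0.14 log2 on the fed arrays (SD, n = 4). Set against fed, the ketogenic arrays gave -0.49 on the log2 scale (standard error 0.10, limma adjusted p = 0.0471), or 28.8% lower. The value for fasted over fed was -0.13 (standard error 0.11, limma adjusted p = 0.836), and that for fasted over ketogenic 0.36 (standard error 0.11, limma adjusted p = 0.246).

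The start regions of Atg4a are shown here because it is the called member, and those of Atg3 and Atg5 because they alone among the members hold the E-box CACGTG, the core of the motif that TFEB and TFE3 bind. They come from RefSeq promoter windows of build GRCm38.p6, which run from 250 bases before to 50 after a transcription start, whole for Atg4a and as the stretch around the E-box for the others. All are on the + strand, and capitals mark the E-box. RefSeq gives Atg4a 2 such windows, at chrX:140953595-140953894 and chrX:140956657-140956956, neither of which holds the motif. The stretch of Atg3 is chr16:45158718-45158780 and that of Atg5 chr10:44268308-44268347.
Atg4a, first window: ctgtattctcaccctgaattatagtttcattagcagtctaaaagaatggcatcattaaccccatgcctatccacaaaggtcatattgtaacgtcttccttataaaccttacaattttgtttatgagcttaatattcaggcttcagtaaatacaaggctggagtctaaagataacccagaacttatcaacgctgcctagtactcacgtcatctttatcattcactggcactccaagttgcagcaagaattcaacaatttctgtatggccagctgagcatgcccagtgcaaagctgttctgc
Atg4a, second window: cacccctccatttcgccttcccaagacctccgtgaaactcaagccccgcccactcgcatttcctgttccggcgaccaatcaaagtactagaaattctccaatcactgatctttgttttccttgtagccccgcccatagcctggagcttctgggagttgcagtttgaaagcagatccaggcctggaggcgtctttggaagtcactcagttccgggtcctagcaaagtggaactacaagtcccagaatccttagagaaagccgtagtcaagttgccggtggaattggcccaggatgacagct
Atg3: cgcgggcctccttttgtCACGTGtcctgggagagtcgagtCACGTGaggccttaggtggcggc
Atg5: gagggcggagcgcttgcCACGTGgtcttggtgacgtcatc
Windows were given for 28 of the 33 members. The E-box, which reads the same on both strands, lay in the windows of 2 of them (7.14%), against 8.09% of the 27025 genes with windows. The longer form TCACGTGA, which contains the E-box, lay in those of Atg3 alone (3.57%, against 1.12%). These matches describe the letters in these windows and do not show binding.

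The call lay close to the threshold and depended on the arrays and the settings. It was kept in 5 of the 18 other fits, and leaving out any 1 of the 4 fed arrays or ketogenic array 1, 2 or 4 moved the adjusted p to between 0.0762 and 0.157, while the log2 fold change stayed between -0.55 and -0.42 over the 8 fits that each left out 1 array. Atg4a has 3 probe sets on the array. The second, which lies among sets of genes from another chromosome, where RefSeq lists the pseudogene Atg4a-ps, had a ketogenic mean of 3.80 log2, below the odorant receptor level of 3.96 log2, and a fed mean of 4.44 log2, a difference of -0.64. The groups overlapped in this second set, with ketogenic array 3 at 4.24 log2 and fed array 1 at 4.23 log2. The third set had a difference of -0.13, with ketogenic arrays at 3.41 to 3.73 log2 and fed arrays at 3.23 to 3.89 log2. Its groups overlapped too, and both means lay below the odorant receptor level. In the set used for the call, ketogenic array 2, at 3.90 log2, lay below it too. Astrocyte markers were lower on the same ketogenic arrays: 9 of 19 were called lower than on the fed arrays (median log2 fold change of the 19 genes -0.42, from -1.02 to -0.26), Aldh1l1 among them at -0.73. Of 14 endothelial and mural markers 12 lay below 0 (median -0.35) and 1, Pdgfrb, was called lower. Of 14 oligodendrocyte markers 12 lay below 0 (median -0.24), with 6 lower at an unadjusted p under 0.05 and none called by limma. No marker of neurons (18 genes, median 0.10) was called either. The same held for microglia (14 genes, median 0.13) and for ependymal and choroid plexus cells (9 genes, median -0.13). At an unadjusted p under 0.05 by limma, 5 neuron markers were higher and 1 lower on the ketogenic arrays. That p was reached by 3 ependymal and choroid plexus markers, all lower, and by 0 microglia markers. Over all genes 7.39% reached it with higher and 6.53% with lower values. All ketogenic arrays lay above all fed arrays for 7 of the 18 neuron markers (5.94% of all genes). The part of these shifts in the Atg4a value was not tested.

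**Figure D3:**
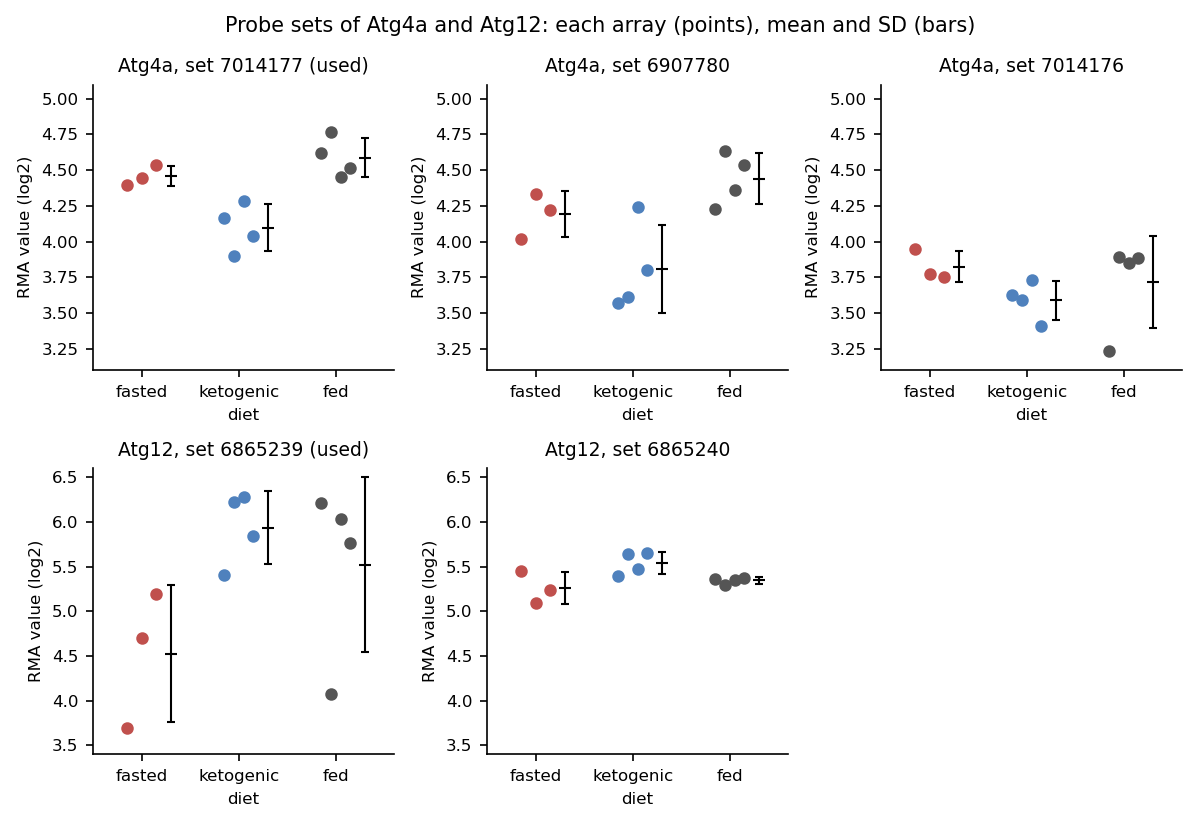
Log2 value on each array (points, with the group mean and SD as bars) of the 3 probe sets of Atg4a and the 2 probe sets of Atg12 for fasted, ketogenic and fed arrays (horizontal axis). The ketogenic points of Atg4a lie lowest in the set used for the gene, where the difference from fed was -0.49, and overlap the fed points in the third set, and the wide scatter of the Atg12 set used for the gene is absent from its other set.

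Among the other 3 ATG4 proteases no value was called. The log2 fold changes of the 4 genes ran from -0.13 to -0.00 between fasted and fed arrays and from -0.49 to 0.15 between ketogenic and fed arrays. Atg4b, the member of the family that in human cells acts on the widest range of ATG8 proteins, read 4.57, 4.70 and 4.63 log2 on the fasted arrays, 4.72, 4.75, 4.74 and 4.84 log2 on the ketogenic arrays and 4.71, 4.86, 4.74 and 4.67 log2 on the fed arrays. Its fasted arrays lay below all ketogenic arrays, at a log2 fold change of -0.13 (standard error 0.07, limma adjusted p = 0.568), and overlapped the fed arrays. Atg4c and Atg4d differed by at most 0.16 log2 in any comparison, Atg4d having log2 fold changes of 0.15 for ketogenic over fed and -0.16 for fasted over ketogenic arrays.

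The ATG8 proteins coat the autophagosome and hold the cargo receptors. Map1lc3a, which encodes LC3A, read 8.18, 8.12 and 7.89 log2 on the fasted arrays, 8.09, 8.36, 8.24 and 8.14 log2 on the ketogenic arrays and 7.87, 7.19, 8.03 and 8.31 log2 on the fed arrays. Fed array 2 lay well below the other fed arrays. The log2 fold change of ketogenic over fed was 0.36 (standard error 0.19, limma adjusted p = 0.441), and 0.14 without that array. Gabarapl1, a member whose transcription FoxO factors raise in mouse muscle, read 8.26, 8.24 and 8.41 log2 on the fasted arrays, 8.38, 8.46, 8.27 and 8.37 log2 on the ketogenic arrays and 7.97, 8.27, 8.26 and 8.21 log2 on the fed arrays. Its ketogenic arrays had the higher values, with 1 of them just below fed array 2, a log2 fold change of 0.19 (standard error 0.09, limma unadjusted p = 0.047 and adjusted p = 0.351), which was 0.12 without fed array 1. Gabarap, its close relative, read 8.66, 8.21 and 8.45 log2 on the fasted arrays, 8.64, 8.59, 8.74 and 8.79 log2 on the ketogenic arrays and 8.56, 8.43, 8.72 and 8.44 log2 on the fed arrays. The fasted arrays of Gabarap spread over 0.45 log2, and its log2 fold change of fasted over ketogenic was -0.25 (standard error 0.11, limma adjusted p = 0.471), and -0.14 without fasted array 2.

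Map1lc3b, which encodes LC3B, the form most used to mark autophagosomes, and Gabarapl2 are the members whose probe set with the highest mean lies among sets of genes from another chromosome than the gene's own (6.83% of all genes). On the chromosome where that Gabarapl2 set lies, RefSeq lists pseudogenes of Gabarapl2, and their part in the signal was not tested. Map1lc3b read 10.96, 10.73 and 10.85 log2 on the fasted arrays, 10.80, 10.84, 10.94 and 10.88 log2 on the ketogenic arrays and 10.87, 11.07, 10.91 and 10.78 log2 on the fed arrays. The groups overlapped. In the set that lies among genes of the gene's own chromosome the ketogenic mean was 7.25 ± 0.05 log2 (SD, n = 4) and the fed mean 7.11 ± 0.11 log2 (SD, n = 4), a difference of 0.14, where the first set gave -0.04. Gabarapl2 read 10.41, 10.15 and 10.48 log2 on the fasted arrays, 10.41, 10.51, 10.39 and 10.35 log2 on the ketogenic arrays and 10.37, 10.41, 10.59 and 10.60 log2 on the fed arrays. Its set among genes of its own chromosome likewise differed in sign, with 0.14 for ketogenic minus fed where the first set gave -0.08. All 5 ATG8 genes had a log2 fold change below 0 for fasted over ketogenic arrays (-0.25 to -0.02), none of them called, and those of Map1lc3b and Gabarapl2 turned to 0.04 and 0.03 without fasted array 2.

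**Figure D4:**
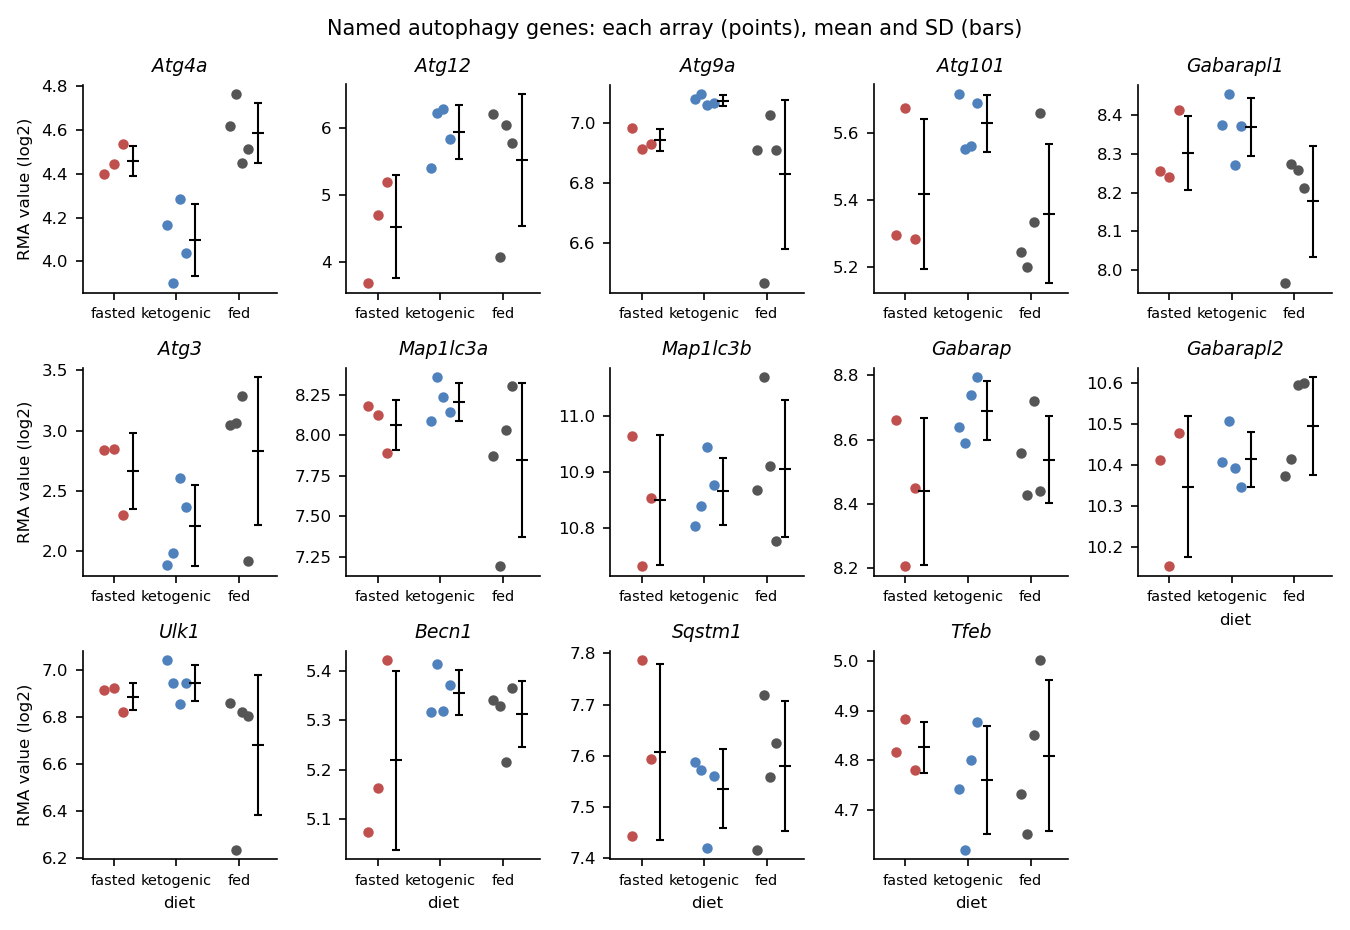
Log2 values on each array (points) with the group mean and SD (bar and line) for 14 autophagy genes in fasted (n = 3), ketogenic (n = 4) and fed (n = 4) arrays. Atg4a is lowest on the ketogenic arrays, Atg12 is scattered over more than 1 log2 unit on the fasted and fed arrays, and the fed group of Ulk1, Map1lc3a and Atg9a holds 1 low point, fed array 2.

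In the conjugation system ATG10 is the conjugating enzyme that joins ATG12 to ATG5, and ATG3 passes ATG8 proteins to lipid. Atg12 read 3.69, 4.70 and 5.19 log2 on the fasted arrays, 5.40, 6.22, 6.28 and 5.84 log2 on the ketogenic arrays and 6.21, 4.08, 6.04 and 5.77 log2 on the fed arrays. All fasted arrays lay below all ketogenic arrays, and fed array 2 lay within the fasted range. The log2 fold change of fasted over ketogenic was -1.41 (standard error 0.49, limma unadjusted p = 0.0156 and adjusted p = 0.334), and that of fasted over fed -1.0 (standard error 0.49, limma adjusted p = 0.713). Fasted over fed, it was -0.58 without fasted array 1 and -1.48 without fed array 2. The other Atg12 probe set, which also lies among genes of the gene's own chromosome, showed differences of only -0.28 and -0.09 in the same comparisons, with fasted arrays at 5.09 to 5.45 log2, ketogenic arrays at 5.39 to 5.66 log2 and fed arrays at 5.30 to 5.38 log2. The size of the Atg12 difference thus depended on the probe set.

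Atg3 read 2.84, 2.85 and 2.30 log2 on the fasted arrays, 1.89, 1.99, 2.61 and 2.36 log2 on the ketogenic arrays and 3.04, 3.06, 3.28 and 1.92 log2 on the fed arrays. These values lie in the range of the unexpressed odorant receptors, and the log2 fold change of -0.62 for ketogenic over fed (standard error 0.28, limma unadjusted p = 0.0499 and adjusted p = 0.359) is a difference between values at background. Fed array 4 lay with the ketogenic arrays. Atg5, the partner of ATG12, had log2 fold changes of -0.09 for fasted over fed, 0.10 for ketogenic over fed and -0.19 for fasted over ketogenic arrays (limma adjusted p = 0.483 for the last). Atg10 had values of 0.13, 0.18 and -0.05 in these comparisons, with fed array 2, at 3.64 log2, the lowest of all its arrays, and without that array its values against fed were 0.03 for fasted and 0.08 for ketogenic arrays. Atg16l2, a relative of the scaffold ATG16L1, read 4.22, 4.23 and 4.24 log2 on the fasted arrays and 4.25, 4.30, 4.27 and 4.31 log2 on the ketogenic arrays. These did not overlap, at a log2 fold change of -0.05 (limma adjusted p = 0.828).

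The ULK1 complex starts the process, and the class III PI3-kinase complex then marks the membrane with the lipid PI3P. Ulk1 read 6.92, 6.92 and 6.82 log2 on the fasted arrays, 7.04, 6.94, 6.86 and 6.94 log2 on the ketogenic arrays and 6.86, 6.24, 6.82 and 6.81 log2 on the fed arrays. Both other groups had a higher mean than the fed group, by 0.21 log2 for fasted (standard error 0.14, limma adjusted p = 0.788) and 0.26 log2 for ketogenic arrays (standard error 0.13, limma adjusted p = 0.384). Without fed array 2 the differences were 0.06 and 0.12 log2. Atg101, which holds ATG13 in the complex, read 5.30, 5.68 and 5.28 log2 on the fasted arrays, 5.72, 5.55, 5.56 and 5.69 log2 on the ketogenic arrays and 5.24, 5.20, 5.33 and 5.66 log2 on the fed arrays. The ketogenic arrays lay above 3 of the 4 fed arrays, and fed array 4 lay among them. The log2 fold change was 0.27 (standard error 0.12, limma unadjusted p = 0.0445 and adjusted p = 0.343). Atg13 and Rb1cc1, which encodes the scaffold FIP200, had log2 fold changes of 0.04 and -0.04 for fasted over fed and of 0.16 and -0.06 for ketogenic over fed arrays. Fed array 2 read 7.61 log2 for Atg13, where the other fed arrays read 8.49 to 8.64 log2. Without that array the values of this set turned to -0.20 for fasted over fed and -0.08 for ketogenic over fed arrays. Atg13 has 3 probe sets, all among genes of its own chromosome. The second gave 0.15 for fasted minus fed and 0.29 for ketogenic minus fed. Its ketogenic arrays, at 7.20 to 7.46 log2, lay above its fed arrays, at 6.77 to 7.18 log2. The third had group means of 2.58 to 3.13 log2, below the odorant receptor level.

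Becn1, the regulatory subunit of the PI3-kinase complex, read 5.07, 5.16 and 5.42 log2 on the fasted arrays, 5.32, 5.41, 5.32 and 5.37 log2 on the ketogenic arrays and 5.34, 5.33, 5.21 and 5.36 log2 on the fed arrays. A pair of the fasted arrays lay below every other array and the third above every other. The log2 fold change was -0.09 for fasted over fed (standard error 0.09, 95% confidence interval -0.29 to 0.10) and 0.04 for ketogenic over fed arrays. Pik3c3, the kinase itself, Uvrag and Ambra1, which bind Becn1, stayed within 0.11 log2 of 0 in all 3 comparisons, with confidence intervals between -0.21 and 0.30.

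Among the genes that supply and shape the membrane, Atg9a, which encodes a lipid scramblase carried on vesicles to the growing membrane, read 6.98, 6.91 and 6.93 log2 on the fasted arrays, 7.08, 7.10, 7.06 and 7.07 log2 on the ketogenic arrays and 6.91, 6.46, 7.03 and 6.91 log2 on the fed arrays. All 4 ketogenic arrays lay above all fed and all fasted arrays, within a range of 0.04 log2. The log2 fold change of ketogenic over fed was 0.25 (standard error 0.11, limma unadjusted p = 0.0414 and adjusted p = 0.336), and 0.13 without fed array 2. Atg9b, its relative, differed by at most 0.04 log2. Atg2a and Atg2b, which move lipid into the membrane, had log2 fold changes of 0.19 each for fasted over fed arrays, with standard errors of 0.15 and 0.19. Without fed array 2 these were 0.06 and 0.05, and that of Atg2a was also 0.06 without fasted array 2. Over the 7 fits that each left out 1 array, Atg2a ran from 0.06 to 0.28 and Atg2b from 0.05 to 0.35. In 1 of those fits Atg2b had an unadjusted p under 0.05 by limma. Over the 6 probe sets of Atg2b the difference of fasted minus fed ran from 0.03 to 0.30. Wipi1 and Wipi2, which bind PI3P, lay between -0.11 and 0.07 in the 3 comparisons.

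The cargo receptors tie ubiquitinated cargo to ATG8 proteins. Sqstm1, which encodes p62, read 7.44, 7.79 and 7.59 log2 on the fasted arrays, 7.59, 7.57, 7.42 and 7.56 log2 on the ketogenic arrays and 7.42, 7.72, 7.56 and 7.63 log2 on the fed arrays. The groups overlapped, with a log2 fold change of 0.03 for fasted over fed (95% confidence interval -0.19 to 0.25) and -0.04 for ketogenic over fed arrays (-0.25 to 0.16). Nbr1, a receptor with a similar build, read 5.85, 6.03 and 5.85 log2 on the fasted arrays, 5.69, 5.80, 5.75 and 5.73 log2 on the ketogenic arrays and 5.85, 6.24, 5.84 and 5.86 log2 on the fed arrays. The ketogenic arrays lay below all others, at a log2 fold change of -0.21 against fed (standard error 0.10, limma adjusted p = 0.359), which was -0.11 without fed array 2.

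The transcription factor TFEB raises the transcription of autophagy and lysosomal genes. Tfeb read 4.82, 4.88 and 4.78 log2 on the fasted arrays, 4.74, 4.62, 4.80 and 4.88 log2 on the ketogenic arrays and 4.73, 4.65, 4.85 and 5.0 log2 on the fed arrays. The groups overlapped, with log2 fold changes of 0.02 for fasted over fed (95% confidence interval -0.19 to 0.23) and -0.05 for ketogenic over fed arrays (-0.24 to 0.15). Tfe3 had log2 fold changes of 0.06 and 0.08 in the same comparisons.

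Genes that work before and after these steps were followed in 6 further lists. In the lysosomal list 1 of 27 genes was called lower for ketogenic against fed, where 0.765% of all genes were: Npc1, which moves cholesterol out of lysosomes, at 6.73 log2 on the ketogenic and 7.11 log2 on the fed arrays (a difference of -0.38, standard error 0.07, limma adjusted p = 0.0371). The call of Npc1 was kept in 6 of 18 other fits and was lost without any 1 of the 8 ketogenic and fed arrays, where its log2 fold change ran from -0.41 to -0.33. No gene of these lists was called in the other comparisons, and none of 17 vacuolar ATPase subunits, 34 mTORC1 and AMPK genes, 26 other autophagosome genes, 9 mitophagy genes or 6 FoxO and MiT family transcription factors was called in any comparison by limma. For ketogenic over fed arrays an unadjusted p under 0.05 was reached by 7.39% of all genes with higher and 6.53% with lower values. Among the lists it was reached by 1 lysosomal gene with higher and 7 with lower values, by 3 ATPase subunits with higher and 1 with lower values, by 3 mTORC1 and AMPK genes with higher and 1 with lower values, by 2 other autophagosome genes with lower values, by 1 mitophagy gene with higher values and by 0 of the FoxO and MiT factors. The lysosomal list had a median log2 fold change of -0.00 for fasted over fed, -0.10 for ketogenic over fed and 0.13 for fasted over ketogenic arrays, and the vacuolar ATPase, whose subunits acidify the lysosome, 0.11, 0.07 and -0.02 in the same order. Of the ATPase subunits 15 of 17 had values above 0 for fasted over fed arrays, and 15 of 17 for ketogenic over fed arrays, where 44.0% and 53.5% of all genes did. The same ketogenic arrays had the marker shifts described for Atg4a. Among them, 9 of 19 astrocyte markers were called lower. Of 18 neuron markers 5 were higher and 1 lower at an unadjusted p under 0.05 by limma. The part of these shifts in the list values was not tested.

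**Figure D5:**
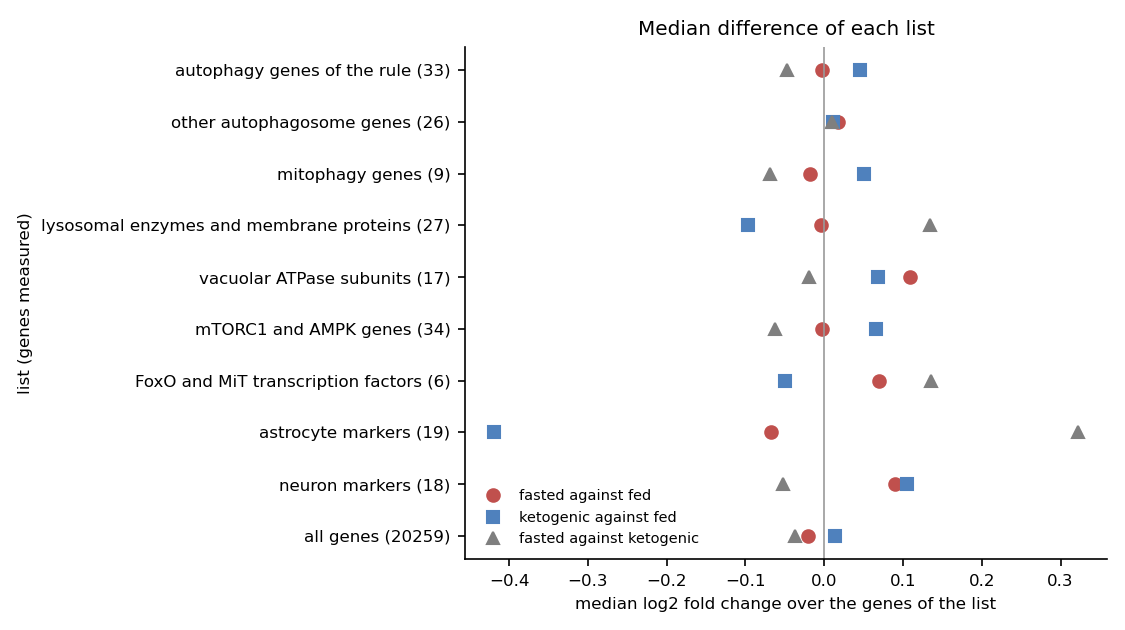
Median log2 fold change (horizontal axis) of lists of genes (rows), for fasted over fed, ketogenic over fed and fasted over ketogenic arrays. The rows are the 33 autophagy genes, the other lists of the pathway, the astrocyte and neuron markers and all genes. The autophagy genes lie at -0.00, 0.05 and -0.05, near all genes, while the astrocyte markers lie at -0.42 for ketogenic over fed arrays.

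Apart from Npc1 for ketogenic against fed, the genes with the smallest unadjusted p in these lists did not pass the adjusted threshold. In the lysosomal list they were Galns (0.44), Hexa (-0.21) and Gaa (0.31) for fasted over fed, all 3 degrading enzymes, and Npc1 (0.23), Naglu (0.25) and Lamp2 (0.32) for fasted over ketogenic arrays. Among the ATPase subunits they were Atp6v0e (0.33), Atp6v1f (-0.27) and Atp6v1b2 (0.21) for fasted over fed, Atp6v1g2 (0.45), Atp6v1b2 (0.27) and Atp6v0e2 (0.37) for ketogenic over fed, and Atp6v1f (-0.33), Atp6v0e (0.33) and Atp6v0e2 (-0.27) for fasted over ketogenic arrays. Between the fasted arrays and either other group these ATPase values lay on both sides of 0. For fasted over ketogenic arrays 19 of the 27 lysosomal genes lay above 0, where 39.3% of all genes did. An unadjusted p under 0.05 by limma was reached by 5 of them with higher and 1 with lower values (4.19% and 6.43% of all genes).

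In the mTORC1 and AMPK list, which holds the nutrient sensors above ULK1, Castor1, an arginine sensor, had a log2 fold change of 0.51 for fasted over fed and 0.63 for fasted over ketogenic arrays (limma adjusted p = 0.611 and 0.207). Lamtor4 (-0.38) and Lamtor5 (-0.31), subunits of the complex that anchors mTORC1 at the lysosome, followed for fasted over fed, and Lamtor4 (-0.57) and Camkk2 (-0.27) for fasted over ketogenic arrays. Sesn3, a leucine sensor family member, had -0.26, Mlst8 0.24 and Camkk2, a kinase that activates AMPK, 0.20 for ketogenic over fed arrays. None of these values passed.

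The list of other autophagosome genes gave Sh3glb1 (-0.20), Calcoco1 (0.26) and Vps39 (0.13) for fasted over fed, Vamp8 (-0.28), Ncoa4 (-0.24) and Sh3glb1 (-0.17) for ketogenic over fed, and Vamp8 (0.32), Pik3r4 (0.19) and Vps11 (0.24) for fasted over ketogenic arrays. Vamp8 is the SNARE that drives fusion with lysosomes, and Ncoa4 the receptor that delivers ferritin. The mitophagy list gave Bnip3l (-0.16), Tbk1 (0.11) and Pink1 (-0.09) for fasted over fed, Bnip3 (0.22), Pink1 (-0.14) and Fkbp8 (0.13) for ketogenic over fed, and Bnip3 (-0.22), Fkbp8 (-0.19) and Bcl2l13 (-0.23) for fasted over ketogenic arrays. Bnip3 and Bnip3l encode receptors on the outer mitochondrial membrane. Foxo3 (0.12), Zkscan3 (0.16) and Foxo4 (-0.13) came first among the transcription factors for fasted over fed, Foxo1 (-0.11), Tfec (-0.06) and Mitf (-0.06) for ketogenic over fed, and Foxo3 (0.12), Foxo1 (0.15) and Mitf (0.17) for fasted over ketogenic arrays.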

How the data were processed

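Ribosome-bound mRNA pulled down from hippocampus was amplified with the NuGEN Pico WTA system, biotin-labelled and hybridised to 1 Affymetrix mouse exon array per sample. The deposited values are log2 expression levels per probe set, made by the authors with RMA in Partek (build mm9, per the labels, versions not given in the sources used here); the base of the logarithm is not stated and was read as log2, the one RMA gives. Quantile normalization within RMA gives all arrays a common distribution, so changes are relative to all genes. Arrays carry no read depth, and their number (3, 4 and 4) limits the precision.

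Of 115830 probe sets, 25539 carried 1 gene symbol in the platform annotation, 2300 several and 87991 none. For each of 20259 genes the brightest single-symbol set, averaged over all 11 arrays without regard to group, stood for the gene. limma 3.58.1 in R 4.3.3 fitted a mean per group to all 11 arrays, and 3 contrasts were tested with Benjamini-Hochberg adjustment over all genes at 0.05. The fit was tested on simulated data. Members and gene lists were chosen with earlier results of these data known. Values on every array were given for members with an unadjusted p under 0.05 in any comparison, for the ATG8 family and for Ulk1, Becn1, Sqstm1 and Tfeb; in other lists, genes past the adjusted threshold or the 3 with the smallest p were named. Values of Ulk2, Nbr1, Atg4b and Atg16l2, whose arrays did not overlap, were added after they were seen. Alternatives changed the probe set rule, scaling, low-value filter, array weights, variance trend, samples and test. A probe set was placed by the chromosome that most of the 15 annotated sets on either side share. Deviations of same-numbered arrays correlated at -0.167 to 0.232, and those of differently numbered arrays at -0.269 to 0.174. Same-numbered fed and fasted arrays all lay above 0 (0.05, 0.23 and 0.20). Same-numbered fasted and ketogenic arrays all lay below 0 (-0.04, -0.17 and -0.09), and those of fed and ketogenic arrays lay on both sides. The labels do not call the numbers pairs, and the main fit did not take them as pairs.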

Additional observations from a re-analysis of the deposited data

Results flagged for a closer look

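In 6 of 66 groups of 4 arrays (9.09%) 1 array lay far from the other 3 of its diet by Dixon's test at the 95% level, which chance alone passes in about 1 of 20 groups. The same test was not run over all genes, and the groups share the same arrays, so this share is not a result about the autophagy genes. Fed array 2 accounted for 4 of the 6, and it was the lowest fed array for 37.1% and the highest for 32.3% of all genes. It read 6.24 log2 for Ulk1, where the nearest fed array read 6.81 log2, and 7.61 log2 for Atg13, where the nearest read 8.49 log2. It read higher than the other fed arrays for Nbr1, at 6.24 log2 with the nearest at 5.86 log2, and for Pik3c3, at 6.79 log2 with the nearest at 6.65 log2. Ketogenic array 3 read 7.42 log2 for Sqstm1, where the nearest ketogenic array read 7.56 log2, and fed array 4 read 4.38 log2 for Atg9b, where the nearest fed array read 4.24 log2.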

How the results depend on the processing

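Of 725 values of the 14 genes given array by array, under 18 alternatives for ketogenic over fed arrays and 17 for each other comparison, 669 kept their direction and their side of the threshold, 43 differed in sign with none of them called on either side, and 13 were the lost call of Atg4a for ketogenic over fed arrays. No member was called in either other comparison under any alternative. The probe-set alternative by chromosome was chosen after seeing the data, and the cause of the changes given here was not tested.

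For fasted over fed arrays 1 gene of all was called without fed array 2 and fasted array 2 together, and 0 to 1 when each array was left out in turn (1 on leaving out fed array 3, likewise fasted array 2). The median of the 33 genes was 0.0278 with a replicate block and 0.0279 with probe sets among genes of the same chromosome, and -0.0099 to 0.0403 with 1 array left out. Signs differed with the median over probe sets for Map1lc3b (0.0305) and Gabarapl2 (0.0156), with probe sets of the same chromosome for Map1lc3b (0.0305) and Gabarapl2 (0.0319), with array weights for Atg101 (-0.0562), Map1lc3b (0.012) and Tfeb (-0.0441), and without fed array 2 and fasted array 2 for Atg101 (-0.1242), Map1lc3a (-0.035), Map1lc3b (0.0578), Sqstm1 (-0.0151) and Tfeb (-0.0628). With 1 array left out, Atg9a ranged from -0.007 to 0.181, Atg101 from -0.0704 to 0.1595, Atg3 from -0.4659 to 0.0163, Map1lc3a from -0.0054 to 0.367, Map1lc3b from -0.1139 to 0.0031, Gabarap from -0.2093 to 0.0181, Sqstm1 from -0.0613 to 0.1099 and Tfeb from -0.0351 to 0.0813.

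For ketogenic over fed arrays the count over all genes was 282 above the odorant receptor level, 387 with array weights, 79 with only these 2 diets fitted, 12 with the methods' t-test and 1 to 170 with 1 array left out, the lowest counts, 1 to 2, being those without ketogenic array 1, 2 or 4. The numbers in the labels were also entered as a replicate block, although the labels do not call them pairs, and 1 gene was then called. The member count was 0 with the median over probe sets, array centring, only these 2 diets, the replicate block, the methods' t-test and without fed array 2 and fasted array 2, and 0 to 1 with 1 array left out. Signs differed with the median over probe sets for Map1lc3b (0.1378) and Gabarapl2 (0.1751), with probe sets of the same chromosome for Map1lc3b (0.1378) and Gabarapl2 (0.1409), with array weights for Map1lc3b (0.0002), and without fed array 2 and fasted array 2 for Atg12 (-0.0681), Map1lc3b (0.0138) and Sqstm1 (0.0018). With 1 array left out, Atg12 ranged from -0.0681 to 0.6428, Map1lc3b from -0.0841 to 0.0138, Sqstm1 from -0.0988 to 0.0018 and Tfeb from -0.1014 to 0.015.

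For fasted over ketogenic arrays the count over all genes was 88 above the odorant receptor level, 188 with array weights, 34 with only these 2 diets fitted, 6 with the replicate block, 6 with the methods' t-test and 8 to 61 with 1 array left out, and the median of the 33 genes was then -0.046 to -0.0182. Signs differed with array weights for Map1lc3b (0.0118), and without fed array 2 and fasted array 2 for Map1lc3b (0.044), Gabarapl2 (0.03) and Sqstm1 (-0.0169). With 1 array left out, Map1lc3b ranged from -0.073 to 0.044, Gabarapl2 from -0.1324 to 0.03 and Sqstm1 from -0.0169 to 0.1543. Signal near background limits what can be read from Atg3.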
